A study of Homo sapiens with 8 samples.

Results

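The comparison set 3 samples of SDHB knockout (SDHB KO) MDA-MB-231 cells against 2 samples of the parental, unmodified cells, which are 5 of the 8 samples of the series. Genes were taken into it when their mean count over the 8 samples, after division by a size factor per sample (the BaseMean), was above 5, which held for 7550 of 58051 genes. MDA-MB-231 is a human breast cancer cell line with a mesenchymal character. The SDHB KO cells were made with a TALEN, a designed nuclease, that was aimed at exon 1 of SDHB and was followed by hygromycin selection. The other 3 samples carry the same knockout and in addition a short hairpin RNA against SDHA (SDHB KO SDHA low). They entered the fit and the BaseMean minimum, and their values are given beside the comparison in places. No group was treated, and all cells were harvested at 70% confluency from full medium. Whether the knockout cells are a single clone is not given in the sources used here, so that effects of SDHB loss and of the making of the subline cannot be told apart.

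SDHB is the iron-sulfur subunit of complex II (succinate dehydrogenase), which oxidizes succinate to fumarate in the tricarboxylic acid (TCA) cycle and passes the electrons on to ubiquinone in the respiratory chain. Loss of complex II stops the cycle at succinate, which is known to accumulate and to inhibit dioxygenases that use 2-oxoglutarate, among them the enzymes that mark hypoxia-inducible factor (HIF) for degradation. Cells without it depend on glycolysis and on carbon that enters the cycle beside it, and SDHB is a tumor suppressor gene in paraganglioma and pheochromocytoma.

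RNA was read from the 3' ends of polyadenylated transcripts, so that levels are given as CPM, reads of a gene scaled to the library total, without correction for transcript length. The 5 samples held between 773042 and 960808 reads on genes, and 3 reads of a gene equalled 3.12 to 3.88 CPM. Markers of the mesenchymal line, such as VIM and CD44, summed to 7228 and 7548 CPM in parental cells and to between 6154 and 6891 CPM in SDHB KO cells. The luminal genes ESR1, PGR, ELF3 and ESRP1 were at 0 in all samples, while the summed luminal list, most of it keratins 8 and 18, lay between 1865 and 2141 CPM. Of the 9 fibroblast and the 9 leukocyte and blood markers, 7 each were at 0 in all samples. Fewer cells of a type and less RNA per cell cannot be told apart in such samples. The labels and methods call the samples biological replicates without saying that they came from separate cultures, so that p-values measure the spread between these samples, which may in part be technical.

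Of the 7550 genes tested, 418 (5.54%) were called, 237 (3.14%) higher and 181 (2.4%) lower in SDHB KO cells. Here a gene was called when its p-value from the quasi-likelihood test of edgeR, adjusted by Benjamini and Hochberg over all genes tested, was below 0.1. The genes that rose had a median log2 fold change of 1.11 and those that fell one of -1.20. Called genes that rose were the more abundant ones, with a median of 149 CPM over the samples against 55.2 CPM for those that fell and 32.1 CPM for all genes tested. They also had shorter transcripts (median 1834 bases against 3511 for the genes that fell and 2946 for all) and a GC content of 50.7% in the last 300 bases, against 45.7% and 43.3%. The deviation of a sample from the mean over samples followed GC content in single libraries, with rank correlations across genes of -0.21 and 0.05 in parental and 0.17, -0.21 and 0.23 in SDHB KO replicates in the order of their numbers. A correction for the GC trend of each library called 500 genes, 377 of them among the 418. Without parental replicate 1, edgeR called 0 genes, with 665 at an unadjusted p below 0.05, and without parental replicate 2 it called 46. Of the 418 genes, 157 (102 higher, 55 lower) were called in 6 ways of fitting the data. The groups did not overlap in 37.9% of all genes tested and in 414 of the 418 called, so that a lack of overlap goes with being called.

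The knockout itself could not be checked by these reads. SDHB had 4 and 3 reads in parental cells and 0, 3 and 1 reads in SDHB KO cells, below the minimum for testing, and reads of the 3' end do not cover the targeted exon. SDHD (0 to 3 reads) and the assembly factor gene SDHAF3 (0 reads in all samples) were not tested either. Of the 5 complex II genes that were tested none was called. SDHA, the flavoprotein subunit, measured 74.0 and 91.6 CPM in parental cells and 148, 135 and 151 CPM in SDHB KO cells, without overlap (log2 fold change 0.80, adjusted p = 0.103, edgeR). DESeq2 gave an adjusted p of 0.096 for it. The membrane anchor gene SDHC was at -0.02, and the assembly factor genes SDHAF1, SDHAF2 and SDHAF4 at -1.09, 0.52 and -0.05 on the log2 scale, with adjusted p-values from 0.434 to 0.985 among SDHC and these 3 genes (edgeR). Reads of SDHA may be shared with its pseudogenes.

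The core enzymes of central carbon metabolism held no call. With 5.54% of all genes called, lists of this size can hold few. No member of the TCA cycle list was called (0 of 14, median log2 fold change -0.08, against -0.0008 over all genes tested), and none of glycolysis (0 of 23, median -0.29). MDH2, which makes oxaloacetate, measured 1195 and 1288 CPM in parental and 985, 917 and 834 CPM in SDHB KO cells (adjusted p = 0.257, edgeR). The most abundant glycolytic genes pointed in different directions, with log2 fold changes of 0.36 for GAPDH, 0.51 for ALDOA and -0.35 for ENO1.

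Carriers of the inner mitochondrial membrane that move intermediates of the cycle were called in both directions. Of 24 genes tested for pyruvate entry, carriers and anaplerosis 4 were called, 1 higher and 3 lower (16.7%, against 5.54% of all genes). Only SLC25A1 was called in all 6 fits. SLC25A1 (ENSG00000100075, chr22:19175581-19178739, minus strand, GRCh38), which exports citrate for lipid synthesis, measured 442 and 497 CPM in parental cells and 120, 210 and 161 CPM in SDHB KO cells. Its highest SDHB KO value was thus below the lowest parental one, and the log2 fold change was -1.51 ± 0.23 (SE, n = 2 and 3, adjusted p = 0.00267, edgeR). SLC25A22, a mitochondrial glutamate carrier, went from 28.9 and 37.2 to 12.3, 10 and 11.9 CPM (-1.52, adjusted p = 0.0503). The dicarboxylate carrier gene SLC25A10, whose product exchanges malate and succinate for phosphate, measured 106 and 92.9 CPM and then 60.2, 57.8 and 47.5 CPM (-0.86, adjusted p = 0.099). SLC25A11, the carrier of 2-oxoglutarate and malate, was the member that rose, from 165 and 135 to 291, 231 and 308 CPM (0.88, adjusted p = 0.0576). SLC25A10 was not called by DESeq2 (adjusted p = 0.102) or with the GC correction (adjusted p = 0.136, edgeR). In SDHB KO SDHA low cells the means were 346 CPM for SLC25A1, 25.7 CPM for SLC25A22 and 62.8 CPM for SLC25A10, between the means of the other groups, and 119 CPM for SLC25A11, below both.

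Subunits of the respiratory chain were called one at a time, at shares not far from the 5.54% of all genes. Of 34 genes of complex I tested 3 rose and 0 fell (8.82% called, median 0.07). NDUFA9 rose from 116 and 120 to 383, 219 and 199 CPM (1.18, adjusted p = 0.0999, edgeR), and NDUFA13 rested on 3 and 2 reads against 24, 10 and 22. DESeq2 did not call NDUFA9 (adjusted p = 0.263). Of 39 genes of complexes III, IV and V 0 rose and 4 fell (10.3%, median -0.11). ATP5F1D, a subunit of the rotor of ATP synthase, measured 340 and 348 CPM in parental cells against 177, 173 and 159 CPM in SDHB KO cells, a narrow spread in both groups (-1.02, adjusted p = 0.0158). The other genes that fell were ATP5PB (-0.98) and ATP5F1E (-0.75) of ATP synthase and CYC1, the cytochrome c1 of complex III (-0.67). Both medians lay near 0.

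Other mitochondrial lists held few calls. In the mitochondrial ribosome 3 of 68 genes rose and 0 fell (4.41%, below the share of all genes): MRPS26 (98.3 and 96.9 against 265, 186 and 222 CPM, 1.20), MRPL23 (1.60) and MRPL17 (0.93). None of 25 chaperones and proteases was called. OPA1, which fuses the inner membrane and shapes cristae, was the single call of 18 genes of mitochondrial dynamics and biogenesis, with 16 and 9 reads in parental and 4, 3 and 2 reads in SDHB KO cells (adjusted p = 0.0964, edgeR).

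**Figure D1:**
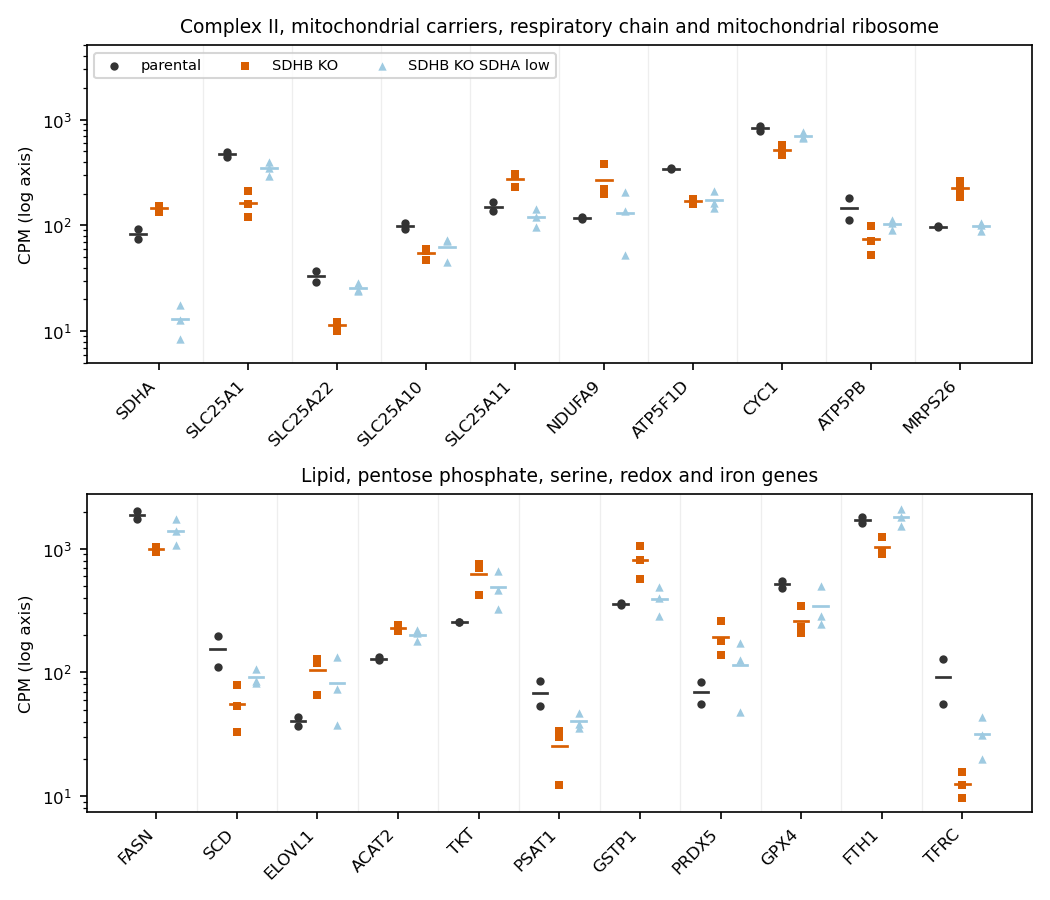
CPM (log axis) of every sample for genes of complex II, mitochondrial carriers, respiratory chain and mitochondrial ribosome (top) and of lipid, pentose phosphate, serine, redox and iron metabolism (bottom), with circles for parental, squares for SDHB KO and triangles for SDHB KO SDHA low cells and a bar at each group's mean. SLC25A1, SLC25A22 and FASN lie lower in SDHB KO cells than in both other groups, and MRPS26 and SLC25A11 lie higher than in both.

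The lists that background knowledge ties to succinate had single calls in them. Of 20 HIF targets tested 1 rose and 1 fell (10% called, against 5.54% of all genes), with a median of -0.39. MIF, a cytokine, fell from 24 and 18 reads to 2, 4 and 3 reads (-2.83, adjusted p = 0.0124, edgeR). Its last bases overlap other genes on both strands, whose reads cannot be told apart here. Among 22 genes for 2-oxoglutarate dioxygenases 2 rose (9.09%). RIOX1, a ribosomal oxygenase, measured 27.8 and 30.5 CPM in parental and 93.0, 82.3 and 83.1 CPM in SDHB KO cells (1.56, adjusted p = 0.00883). HIF1AN, the asparagine hydroxylase that restrains HIF, rose from 224 and 277 to 469, 358 and 405 CPM (0.71, adjusted p = 0.0835). The last bases of RIOX1 lie on exons of HEATR4 on the other strand.

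Lipid synthesis included abundant genes that fell. Of 19 genes of fatty acid synthesis 1 rose and 2 fell (15.8% called, against 5.54% of all genes). The median of the list was -0.39, with -0.26 after the GC correction. FASN, the fatty acid synthase that builds palmitate, measured 1731 and 2026 CPM in parental cells and 948, 1028 and 1006 CPM in SDHB KO cells (-0.92 ± 0.21, SE, adjusted p = 0.0233, edgeR). SCD, the desaturase that makes oleate, measured 196 and 112 CPM against 32.8, 78.9 and 54.0 CPM (-1.46, adjusted p = 0.0147). The elongase gene ELOVL1, which acts on saturated very long chains, rose from 37.0 and 43.8 to 127, 65.6 and 120 CPM (1.36, adjusted p = 0.0793). All 3 were called in each of the 6 fits. In cholesterol synthesis, where 18 genes were tested, 1 rose and 1 fell (11.1% called). ACAT2, which condenses acetyl-CoA at the start of the pathway, rose from 125 and 134 to 218, 219 and 244 CPM (0.81, adjusted p = 0.0582), and its last bases overlap TCP1 on the other strand. The median of that list was -0.09. The mean of FASN in SDHB KO SDHA low cells, 1402 CPM, lay between those of the other groups. Fatty acid oxidation held 1 call of 16, the hydratase ECHS1 (0.85).

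Single enzymes of the other metabolic lists changed. TKT, the transketolase of the pentose phosphate pathway, rose from 256 and 256 to 757, 426 and 696 CPM (1.29, adjusted p = 0.0189, edgeR) and was the single call of 8 genes. PSAT1, the aminotransferase of serine synthesis, fell from 84.5 and 53.1 to 12.3, 30.0 and 33.5 CPM (-1.42, adjusted p = 0.0395), again the single call of its list of 14 tested genes. PHGDH, of the same list, had 12 and 10 reads in parental and 0 reads in every SDHB KO and SDHB KO SDHA low sample. Its BaseMean over all samples was below the minimum, so that it was not tested. PSAT1 is also a target of ATF4, the transcription factor of the integrated stress response. Among 24 ATF4 targets tested 2 rose and 1 fell (12.5% called, against 5.54% of all genes), with a median of 0.02. The transcription factor ATF5 (32.4 and 30.5 against 126, 67.8 and 75.5 CPM, 1.50) and the amino acid transporter SLC7A5 (0.78) rose. The calls of this list thus went both ways.

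Iron and redox genes included the call with the smallest p-value. TFRC (ENSG00000072274, chr3:196012511-196082153, minus strand, GRCh38), the transferrin receptor for iron uptake, measured 127 and 55.8 CPM in parental cells and 12.3, 15.6 and 9.7 CPM in SDHB KO cells. Its log2 fold change was -2.86 ± 0.41 (SE, adjusted p = 0.00267, edgeR) and between -3.33 and -2.14 when single samples were left out, the smaller size without parental replicate 1. FTH1, the heavy chain of the iron store ferritin, fell from 1626 and 1819 to 913, 1244 and 967 CPM (-0.73, adjusted p = 0.0637). Of 29 NRF2 and glutathione genes 2 rose and 2 fell (13.8% called, against 5.54% of all genes), with a median of 0.01. GSTP1, a glutathione transferase, rose from 349 and 364 to 1050, 571 and 807 CPM (1.18), and the peroxiredoxin PRDX5 from 55.5 and 83.6 to 260, 178 and 139 CPM (1.47). GPX4, which reduces lipid peroxides, fell from 479 and 550 to 209, 232 and 343 CPM (-0.97). The list did not move in 1 direction.

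**Figure D2:**
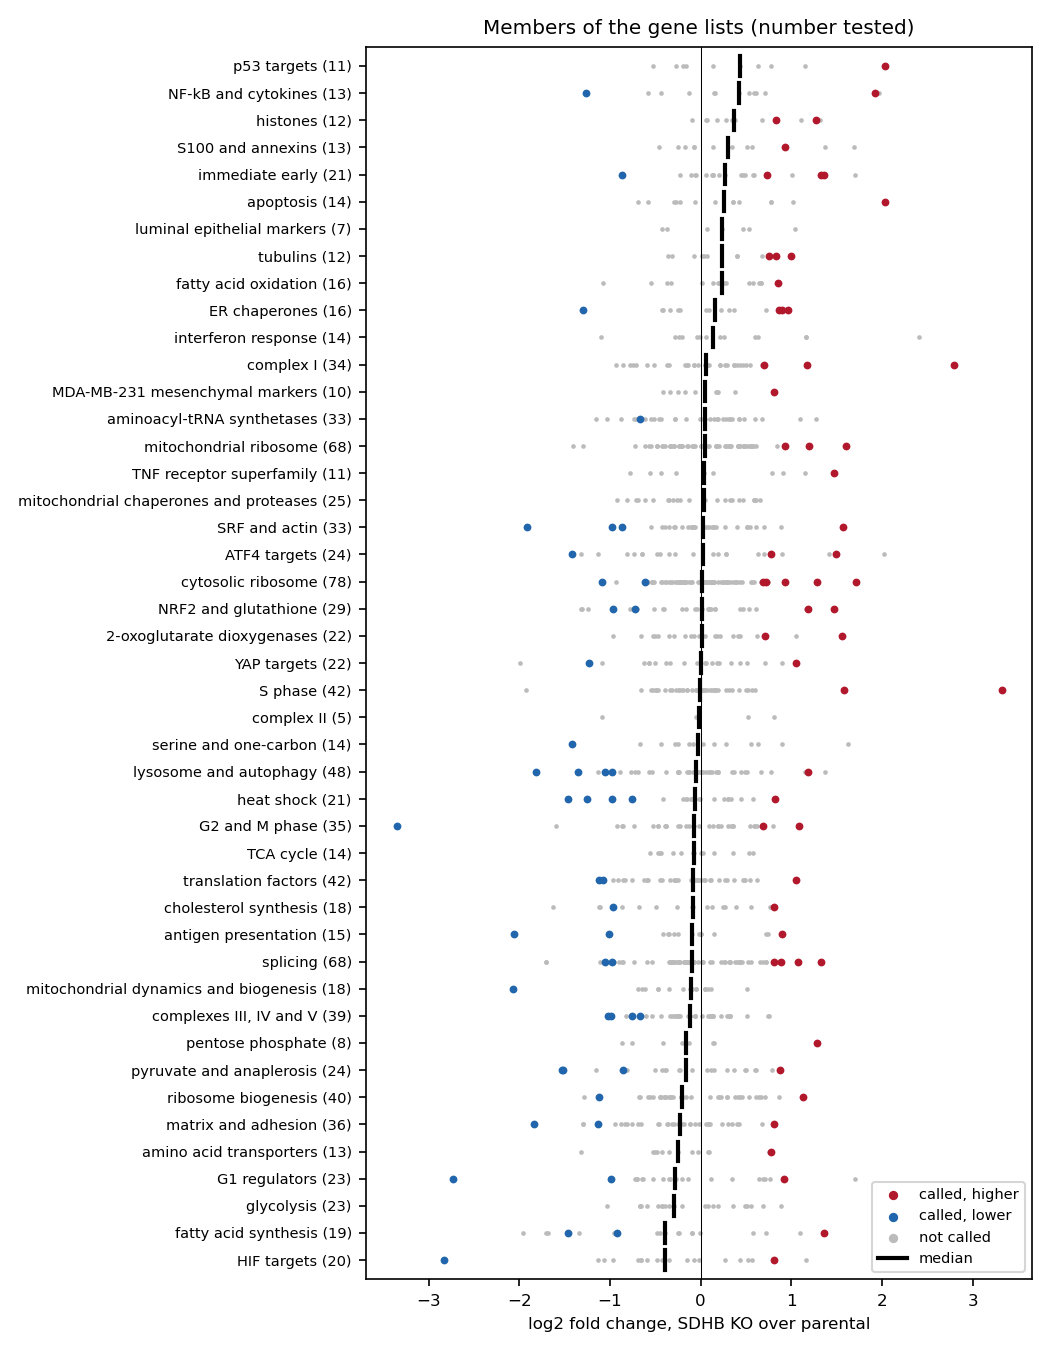
Log2 fold change of SDHB KO over parental cells for each tested member of the gene lists, with the number tested in brackets, called members in red (higher) and blue (lower), other members in grey and a black bar at each list's median. Most medians lie near 0, and calls of both directions occur within many lists.

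Beyond metabolism, the 12 largest increases among called genes with a mean of at least 20 CPM and no overlap were in genes of unlike function, while larger fitted changes occurred at lower levels. QTRT1 (chr19:10701430-10713437, plus strand, GRCh38), a subunit of the enzyme that puts queuine into tRNA, had 4 and 3 reads in parental cells and 43, 22 and 31 reads in SDHB KO cells (log2 fold change 3.11 ± 0.59, SE, adjusted p = 0.00854, edgeR). AP1S1, a subunit of the clathrin adaptor complex, measured 41.6 and 41.2 CPM against 240, 105 and 186 CPM (2.08, adjusted p = 0.0085). PTGES, which makes prostaglandin E, rose from 32.4 and 30.5 to 162, 72.3 and 150 CPM (2.01), and PRKAG1, a regulatory subunit of AMP-activated protein kinase, from 40.5 and 38.5 to 196, 118 and 113 CPM (1.84, adjusted p = 0.0082). In each of these genes the spread was larger among SDHB KO than among parental samples. The ribosomal protein gene RPS10 rose from 531 and 559 to 2281, 1241 and 1829 CPM (1.71 ± 0.28, SE, adjusted p = 0.00381). The pro-apoptotic gene BAX (8 and 4 reads against 38, 16 and 22, 2.03, adjusted p = 0.0964), the cytokine IL11 (1.93), the HES family repressor HES4 (1.81), and ASPHD1 (1.89), C19orf33 (1.81) and ISOC2 (1.72), for which no role is given here, completed the 12 apart from a small RNA described below. The last bases of PRKAG1 and of C19orf33 overlap another gene on the same strand.

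The 12 largest decreases under the same limits included genes of chromosome segregation, transport and the cell surface. CENPF, a kinetochore protein of dividing cells, had 66 and 16 reads in parental cells and 3, 8 and 1 reads in SDHB KO cells (-3.35 ± 0.62, SE, adjusted p = 0.0082, edgeR). LRFN4, a synaptic adhesion protein, measured 229 and 260 CPM against 84.8, 61.1 and 52.9 CPM (-1.89 ± 0.30, SE, adjusted p = 0.00335), although its last bases overlap PC on the other strand. PIEZO1, a mechanically gated ion channel, fell from 78.7 and 88.9 to 4.1, 22.2 and 30.2 CPM (-2.10), with an overlap of CTU2. KIF5B, a kinesin motor, went from 79.8 and 30.5 to 12.3, 16.7 and 12.9 CPM (-1.98), and the splicing regulator HNRNPH3 from 99.5 and 39.8 to 16.4, 20 and 18.3 CPM (-1.93). CENPF, TFRC, KIF5B, HNRNPH3 and CDC42EP3 (-1.83), an effector of the GTPase CDC42, share a parental replicate 1 that lay well above parental replicate 2. Without it the log2 fold changes were -2.15 for CENPF and -1.11 for both KIF5B and HNRNPH3. GNAI3, an inhibitory G protein subunit, fell by 1.88 on the log2 scale. The histone gene H2AC25 (-3.06) has near-identical copies elsewhere, so that its reads are uncertain.

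**Figure D3:**
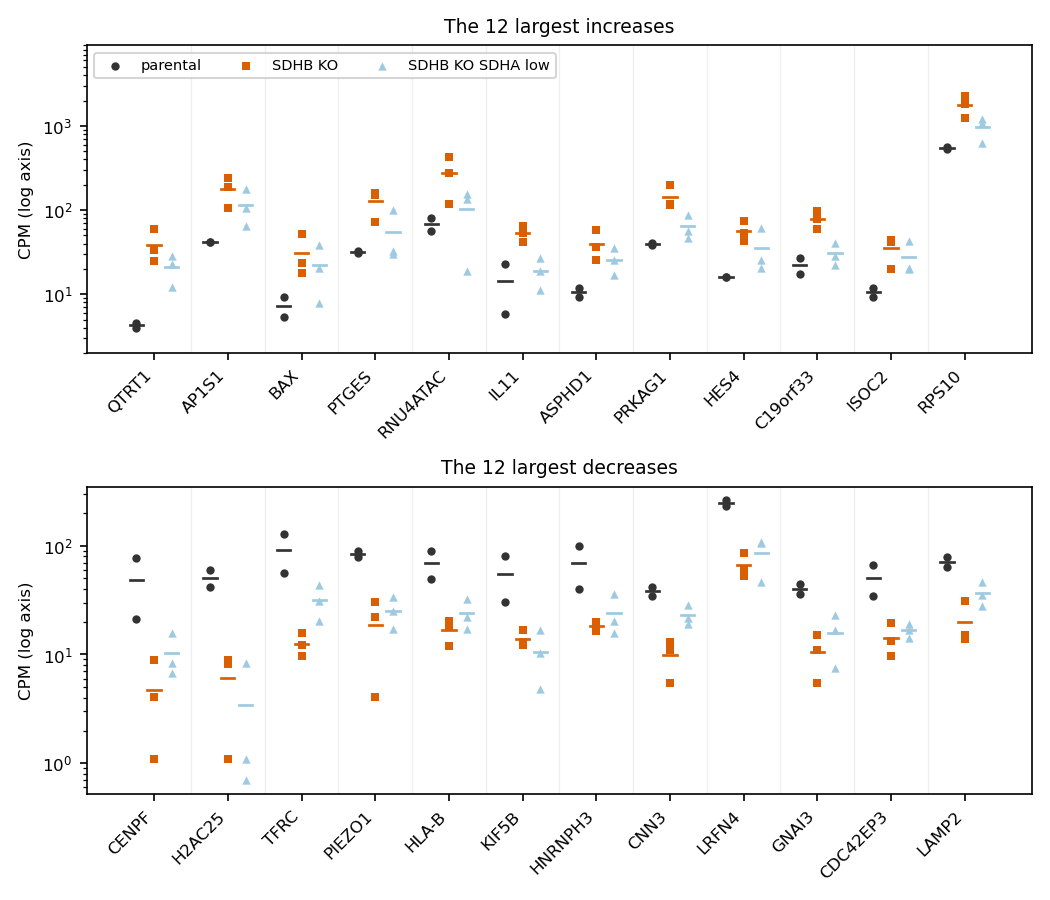
CPM (log axis) of every sample for the 12 genes that rose most and the 12 that fell most among called genes with a mean of at least 20 CPM and no overlap between SDHB KO and parental cells, with symbols as in the plot of metabolic genes. Parental values are close together for most genes that rose and further apart for CENPF, TFRC, KIF5B and HNRNPH3.

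Cell cycle genes were called one at a time. In S phase 2 of 42 tested genes rose and 0 fell (4.76%, median -0.01): the replicative ligase LIG1 from 48.6 and 39.8 to 203, 85.6 and 113 CPM (1.58, adjusted p = 0.0203, edgeR), and the primase subunit PRIM2, for which parental cells had 0 and 1 reads and SDHB KO cells 6, 7 and 6, too few for a fold. In G2 and M phase 2 of 35 rose and 1 fell (median -0.07): PTTG1, the securin that guards sister chromatids, from 417 and 420 to 1052, 699 and 915 CPM (1.09), and CKS1B, a subunit that binds cyclin-dependent kinases (0.69), beside CENPF, which fell. Among 23 regulators of G1 the kinase CDK4 rose from 734 and 811 to 1649, 1262 and 1469 CPM (0.92, adjusted p = 0.0266), whereas CDK2 fell from 774 and 806 to 465, 447 and 286 CPM (-0.99, adjusted p = 0.0488). RB1, the pocket protein that restrains entry into S phase, fell from 19 and 8 reads to 2 reads in each SDHB KO sample (-2.74, adjusted p = 0.0355, and -2.11 without parental replicate 1). The last bases of CDK4 overlap TSPAN31. Of 11 p53 targets and 14 apoptosis genes tested 1 each was called, BAX in both. A further 14 p53 targets and 16 apoptosis genes were below the minimum and not tested.

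Genes of actin and of the serum response were called in both directions. SRF, the transcription factor that binds CArG boxes in promoters of actin and muscle-type genes, measured 750 and 730 CPM in parental and 389, 429 and 314 CPM in SDHB KO cells, and 792 CPM on average in SDHB KO SDHA low cells (-0.97 ± 0.20, SE, adjusted p = 0.0124 for SDHB KO against parental, edgeR). ACTG1, cytoplasmic gamma actin and a known SRF target, fell from 21913 and 22579 to 12371, 12927 and 11373 CPM (-0.86 ± 0.18, SE, adjusted p = 0.0152), which put it among the most abundant genes called. CNN3, an actin-binding calponin, fell from 41.6 and 34.5 to 5.5, 11.1 and 12.9 CPM (-1.91). TAGLN2, a transgelin, rose from 363 and 390 to 1393, 876 and 1082 CPM (1.57 ± 0.26, SE, adjusted p = 0.0046). These were the 4 calls of 33 tested genes (12.1%, against 5.54% of all genes), and the median of the list was 0.02. ACTG1 has close paralogs and pseudogenes, and its reads are uncertain to that extent.

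The promoters of SRF and ACTG1 are shown because both genes fell and both hold the CArG box. Each sequence runs from 250 bases before to 50 bases after the RefSeq start on GRCh38.p14 (chr6:43171019-43171318, plus strand, and chr17:81512750-81513049, minus strand), with CArG boxes in capitals.
SRF: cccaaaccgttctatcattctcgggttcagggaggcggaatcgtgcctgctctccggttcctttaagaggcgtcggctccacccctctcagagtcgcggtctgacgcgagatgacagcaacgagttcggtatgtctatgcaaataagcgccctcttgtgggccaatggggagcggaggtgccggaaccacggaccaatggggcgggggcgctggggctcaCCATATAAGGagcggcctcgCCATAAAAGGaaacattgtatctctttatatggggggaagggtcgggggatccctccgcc
ACTG1: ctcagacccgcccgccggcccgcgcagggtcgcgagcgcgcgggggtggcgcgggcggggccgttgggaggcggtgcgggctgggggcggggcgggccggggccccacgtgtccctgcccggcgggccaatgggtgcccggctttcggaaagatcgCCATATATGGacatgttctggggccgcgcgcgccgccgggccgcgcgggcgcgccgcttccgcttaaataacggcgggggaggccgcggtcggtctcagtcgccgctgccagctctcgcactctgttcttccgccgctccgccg
SRF holds 2 boxes, which begin 30 and 10 bases before the start, and ACTG1 holds 1, which begins 94 bases before it. Promoters were found for 6081 of the genes tested, and 1.2% of them held a CArG box on either strand, against 1.42% (2 of 141) of the genes that fell and 2.11% (4 of 190) of those that rose. These 2 are thus the only called genes that fell with a box in this window among those matched.

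Immediate early genes and cytokines were called in both directions. Of 21 immediate early genes tested 3 rose and 1 fell (19.0% called, against 5.54% of all genes, median 0.27). IER3, a survival gene of the immediate early class, went from 1077 and 1119 to 3507, 2302 and 2658 CPM (1.36 ± 0.25, SE, adjusted p = 0.0082, edgeR). Its last bases overlap IER3-AS1 on the other strand. DUSP4, a phosphatase that inactivates MAP kinases, rose from 106 and 110 to 311, 248 and 256 CPM (1.32, adjusted p = 0.0082), and IER5 by 0.73. FOSL1, the AP-1 subunit FRA1, fell from 408 and 433 to 264, 190 and 236 CPM (-0.87, adjusted p = 0.05). Of 13 NF-kB and cytokine genes IL11, an interleukin of the IL-6 family, rose from 5.8 and 22.6 to 64.3, 53.4 and 42.1 CPM (1.93, adjusted p = 0.0355), with 1.23 without parental replicate 1 and 3.17 without parental replicate 2. NFKB1, the p105 precursor, fell from 54.4 and 67.7 to 9.6, 34.5 and 30.2 CPM (-1.26, adjusted p = 0.0884). TNFRSF21, a death receptor (1.47), was the single call of 11 genes tested in the TNF receptor superfamily list (9.09%, against 5.54% of all genes). In that list, which also holds ligand genes, 13 further genes with at most 17 reads in any sample were not tested. None of 14 interferon response genes tested was called, with ISG15 at -0.21 and IFITM3 at 0.21. A further 26 genes of that list, with at most 9 reads in any sample, were below the minimum and not tested. The same held for 28 NF-kB and cytokine genes, with at most 12 reads.

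The IL11 promoter (chr19:55370414-55370713, minus strand, GRCh38.p14, RefSeq) is shown with its AP-1 motif in capitals, since it holds that motif and rose while the AP-1 subunit gene FOSL1 fell.
IL11: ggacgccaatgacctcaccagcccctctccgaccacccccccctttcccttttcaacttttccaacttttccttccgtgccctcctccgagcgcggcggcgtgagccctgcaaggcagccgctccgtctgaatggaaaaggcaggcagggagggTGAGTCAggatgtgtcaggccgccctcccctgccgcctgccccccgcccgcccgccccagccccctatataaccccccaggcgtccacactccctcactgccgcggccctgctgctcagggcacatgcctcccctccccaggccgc
The match begins 96 bases before the start. The letters TGACTCA or TGAGTCA, which are each other's reverse complement, were present in 3.03% of the promoters of all genes tested, in 6.84% (13 of 190) of the genes that rose and in 4.26% (6 of 141) of those that fell. The CARE motif of ATF4, TGATGNAA, was present in 1.38% of all, 0.526% of the genes that rose and 0 of 141 of those that fell. The hypoxia response core ACGTG was present in 27.8%, 24.7% and 25.5%, and the antioxidant response motif TGACNNNGC in 15.9%, 19.5% and 18.4%. The E box CACGTG, which contains the hypoxia core, was present in 10.9%, 8.95% and 12.1%, CCAAT in 37.6%, 37.9% and 41.1%, the GC box GGGCGG in 74.2%, 76.3% and 75.9%, and the NF-kB letters GGGACTTTC in 0.312%, 1.05% and 0.709%, all searched on both strands.

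Chaperones of the cytosol and of the endoplasmic reticulum (ER) were called in different directions. In the ER list 3 of 16 genes rose and 1 fell (25%, median 0.16). CALR, the calcium-binding chaperone calreticulin, measured 441 and 393 CPM against 764, 800 and 762 CPM (0.89, adjusted p = 0.0355, edgeR), and SDF2L1 (0.97) and HYOU1 (0.87) rose with it. The ER chaperone HSP90B1 fell (-1.30), but with 122 and 42.5 CPM in parental and 27.4, 45.6 and 27.0 CPM in SDHB KO cells the groups overlapped, and without parental replicate 1 the log2 fold change was -0.34. Of 21 heat shock genes 1 rose and 4 fell (23.8%, median -0.06). HSF1, the transcription factor of the heat shock response, fell from 606 and 766 to 411, 385 and 419 CPM (-0.76, adjusted p = 0.0476). The chaperones HSPH1 (-1.46, and -0.95 without parental replicate 1), HSPA4 (-0.98) and HSP90AA1 (-1.26) fell as well, whereas the co-chaperone STIP1 rose (0.82). HSP90AA1 overlapped between groups, with 528 and 174 against 98.5, 208 and 133 CPM, without parental replicate 1 its log2 fold change was -0.24, and DESeq2 did not call it (adjusted p = 0.278). HSF1 shares its last bases with DGAT1.

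Antigen presentation and the lysosome held more genes that fell than rose. HLA-B, a class I antigen-presenting molecule, measured 89.1 and 49.1 CPM in parental and 20.5, 17.8 and 11.9 CPM in SDHB KO cells (-2.06 ± 0.39, SE, adjusted p = 0.0085, edgeR). Its light chain gene B2M fell from 127 and 78.3 to 42.4, 55.6 and 55.0 CPM (-1.01, adjusted p = 0.0589). With CALR these were the 3 calls of 15 genes tested (20%, against 5.54% of all genes, median -0.09). Reads of HLA-B may be shared with other class I genes. Of 48 lysosome and autophagy genes 1 rose and 4 fell (10.4%, median -0.05). LAMP2, a membrane protein of lysosomes, fell from 78.7 and 63.7 to 15.1, 31.1 and 14 CPM (-1.81, adjusted p = 0.0124), and ATP6V0B of the membrane part of the proton pump from 613 and 639 to 363, 264 and 328 CPM (-0.98, adjusted p = 0.0143). The hydrolase HEXA (-1.35) and the saposin precursor PSAP (-1.05) fell, while ATP6V1B2, of the cytosolic part of the same pump, rose from 115 and 122 to 356, 250 and 203 CPM (1.18, adjusted p = 0.0159). DESeq2 did not call PSAP (adjusted p = 0.282).

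Genes of translation and RNA processing were called in small numbers and in both directions. In the cytosolic ribosome 5 of 78 genes rose and 2 fell (8.97%, median 0.02). RPL27A measured 3287 and 3771 CPM in parental cells and 12670, 5671 and 7502 CPM in SDHB KO cells (1.29, adjusted p = 0.0156, edgeR), with SDHB KO replicate 1 far above the others. Reads of ribosomal protein genes may be shared with their many pseudogenes, and reads that map to several places, which were not counted, made up 14.5 to 16.1% of all reads in SDHB KO and 10.2 to 10.9% in parental samples. The part of that difference in these calls was not tested. Of 42 translation factors the initiation factor subunit EIF3I rose (1.05), and its partner EIF3F (-1.12) and EIF5A, the hypusine-bearing factor (1066 and 893 against 438, 488 and 468 CPM, -1.08), fell. Of 33 aminoacyl-tRNA synthetases VARS1 fell (-0.67). In ribosome biogenesis UBTF, which drives transcription of ribosomal DNA, rose from 83.3 and 75.7 to 181, 186 and 159 CPM (1.13). Nucleophosmin (NPM1) fell from 420 and 236 to 177, 135 and 145 CPM (-1.12, and -0.64 without parental replicate 1). Among 68 splicing genes 4 rose and 2 fell (8.82%, median -0.09), led by U2AF2, which recognizes the polypyrimidine tract (221 and 289 against 739, 550 and 628 CPM, 1.32, adjusted p = 0.00779).

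All called members of the tubulin and histone lists rose, while H2AC25, a histone gene outside these lists, fell (-3.06). Of 12 genes tested in the tubulin list, which also holds the gamma-tubulin complex component TUBGCP2, 3 rose (25% called, against 5.54% of all genes). They were TUBB (4495 and 4731 against 9122, 6239 and 7905 CPM, 0.75), TUBG1 (0.83) and TUBGCP2 (1.00), with adjusted p-values between 0.0461 and 0.0965 (edgeR). Of 12 genes tested in the histone list, H1-10 and H1-2 rose (16.7% called, against 5.54% of all genes). Both are linker histones, with H1-10 at 636 and 745 against 1232, 1057 and 1404 CPM (0.83) and H1-2 at 1.27. Of the called genes in the tubulin and histone lists, 0 were called in all 6 fits. Of 36 matrix and adhesion genes 1 rose and 2 fell, the laminin chain LAMA5 (-1.84, and -2.66 without SDHB KO replicate 2) and CRTAP, a component of the collagen prolyl hydroxylation complex (-1.14). S100A13 was the single call of 13 S100 and annexin genes (0.93). Among 22 YAP targets ANKRD1 rose (1.06) and AMOTL1 fell (-1.23).

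Of the genes without a protein product that were called, those with the smallest p-values went both ways. ZFAS1, a host of small nucleolar RNAs, fell from 99.5 and 55.8 to 23.3, 36.7 and 27.0 CPM (-1.42, adjusted p = 0.0363, edgeR, and -0.93 without parental replicate 1). LINC00324 rose from 30.1 and 27.9 to 79.4, 105 and 63.7 CPM (1.50, adjusted p = 0.0249). The Y RNA gene RNY1 (1.57) and the processed pseudogenes ENSG00000226396 (1.28) and RPS28P7 (-1.12), whose reads may be those of their parent genes, were also called. RNU4ATAC, a small nuclear RNA of the minor spliceosome, rose from 79.8 and 57.1 to 424, 278 and 119 CPM (1.98, adjusted p = 0.0604), with the 3 SDHB KO values far apart, and DESeq2 did not call it (adjusted p = 0.208). RNY1 and RNU4ATAC are transcripts that normally lack a poly(A) tail, whereas the library kit primes on it.

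Across all 46 gene lists with tested members, 98 of the 418 called genes belonged to a list, 7 lists had none called, and 29 had a median within 0.2 of 0 on the log2 scale.

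By position, 5 of 112 windows of 20 Mb with at least 20 tested genes had a median log2 fold change beyond 0.4 in size, and the middle of the windows lay between -0.11 and 0.08 (quartiles). The windows described on chromosomes 1 and 12 were picked as the extremes after their values were seen. On chromosome 1 between 80 and 120 Mb, 52 of 64 genes were below 0, the median was -0.63 (-0.56 with the GC correction), and 11 genes fell and 0 rose, 17.2% against 5.54% of all genes. Of these 11 genes, 0 were called in all 6 fits, which held for 157 of the 418 called genes. The 11 genes included NRAS, a RAS GTPase (42 and 13 reads in parental and 3, 4 and 1 in SDHB KO cells, -3.34, adjusted p = 0.0082, edgeR, and -2.40 without parental replicate 1). TRIM33, a ubiquitin ligase (-2.85, and -3.59 without SDHB KO replicate 2), CNN3, GNAI3 and ATP5PB were also among the 11. The samples' medians in this region, as log2 deviations from the mean over all samples, were 0.53 and 0.20 in parental and -0.35, 0.02 and -0.21 in SDHB KO cells, so that parental replicate 1 stood highest. Without it the median log2 fold change of the region was -0.40, and in SDHB KO SDHA low cells against the same parental samples it was -0.55.

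The first 20 Mb of chromosome 12 showed the opposite sign, with 48 of 62 genes above 0, a median of 0.44 and 3 called genes, all higher (4.84%). YBX3, a cold shock domain protein, measured 174 and 154 CPM against 327, 454 and 390 CPM (1.25, adjusted p = 0.0124, edgeR), and PTMS, parathymosin, rose from 139 and 142 to 343, 259 and 209 CPM (0.94, adjusted p = 0.0436). NDUFA9 was the other gene. The samples' medians in this region were -0.09 and -0.01 in parental and 0.36, 0.29 and 0.29 in SDHB KO cells, without overlap. They were between -0.28 and -0.25 in SDHB KO SDHA low cells, below both other groups. The first 20 Mb of chromosome 20 showed the same order of groups, with 46 of 59 genes above 0 and a median of 0.29. Sample medians there were 0.09 and 0.13 in parental and 0.33, 0.36 and 0.51 in SDHB KO cells. In SDHB KO SDHA low cells they were between -0.50 and -0.36. On chromosome 17 the first 20 Mb had the same order too, with 95 of 142 genes above 0. MRPS26 lies in the window of chromosome 20 and SLC25A11 in that of chromosome 17.

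**Figure D4:**
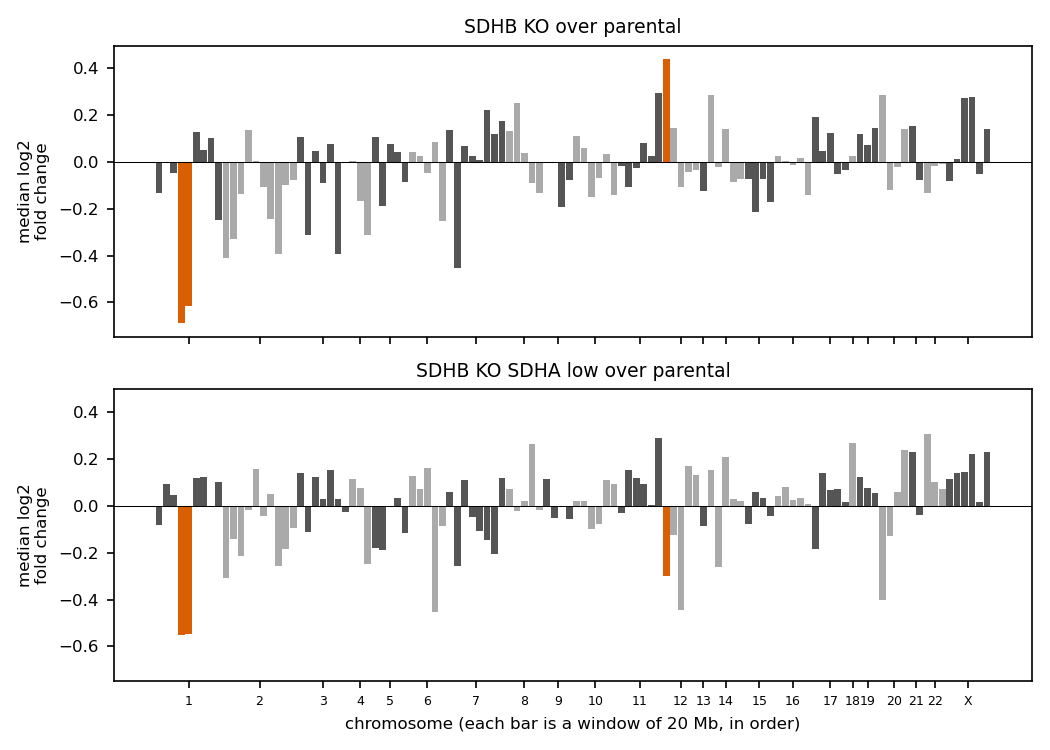
Median log2 fold change of the tested genes in each of 112 windows of 20 Mb, in order along the chromosomes (greys alternate by chromosome). The top panel shows SDHB KO over parental cells and the bottom panel SDHB KO SDHA low over the same parental cells. Chromosome 1 between 80 and 120 Mb and the first 20 Mb of chromosome 12 are in orange. The region of chromosome 1 is low in both panels, and that of chromosome 12 is high in the top and low in the bottom panel.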

How the data were processed

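Expression was measured by 3' end sequencing of polyadenylated RNA (QuantSeq FWD libraries) in 2 parental, 3 SDHB KO and 3 SDHB KO SDHA low samples, grouped by the modification in the labels. Per the submitters' processing notes and the methods, the authors trimmed reads (Trimmomatic), discarded those from ribosomal and mitochondrial RNA (Sortmerna) and aligned the remainder to GRCh38 with STAR 2.5.2b, which also counted them. The deposited values used here are these raw counts of reads per gene. The strand setting of the counting is not given in the sources used here. Reads that were unmapped, multimapping or on no or several genes, 18.8 to 28.6% of all reads, were left out of library sizes. The size-factor normalized values, also deposited by the authors, were not used.

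All 8 samples entered 1 quasi-likelihood fit in edgeR 4.0.16 (R 4.3.3) after TMM normalization, with the group as the only term, a BaseMean above 5 and calls at an adjusted p below 0.1. Standard errors were derived from the F statistic. The biological coefficient of variation was 21.5%. GENCODE on GRCh38 gave names, positions and GC content (56948 of 58051 identifiers matched), and RefSeq gave promoters. Lists were described by counts and medians, with no test of a list.

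The genes named were chosen from the complex II genes and the 12 called genes of largest change in each direction with at least 20 CPM and no overlap. Up to 5 called genes of each list by p-value (or 3 abundant members where none was called) were added. So were 3 genes by p-value in each region described on chromosomes 1 and 12, and 5 non-coding RNAs. The members and lists were chosen with earlier results of these data known. Alternatives were DESeq2 1.42.0, its size factors in edgeR, other filters, an adjusted p of 0.05, the 5 samples alone, the replicate number as a block, a GC offset (lowess, span 0.3, last 300 bases of the canonical transcript) and each sample left out in turn. The 6 fits named in the text were the main one, DESeq2, its size factors, the block, the GC offset and the 5 samples alone. Scripts were tested on simulated data. Intervals of read shares (95%, Wilson) cover counting error only. Pyrimidine, proteasome and RNA decay genes were not analysed here, and some genes that the rule names are not reported here.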

Additional observations from a re-analysis of the deposited data

Results flagged for a closer look

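Reads outside the gene counts differed between the groups. Reads that mapped to several places made up 10.17% (95% Wilson interval 10.12 to 10.23%) and 10.92% (10.86 to 10.98%) of all reads in parental cells. In SDHB KO cells they made up 16.07% (16 to 16.14%), 14.7% (14.63 to 14.76%) and 14.45% (14.39 to 14.51%), above both parental samples, and in SDHB KO SDHA low cells 12.28%, 9.72% and 11.28%. Reads not counted on a gene for any reason made up 22.3% and 22.48% in parental and 28.61%, 27.59% and 25.98% in SDHB KO cells, again without overlap. These reads entered no comparison, and their part in the results for genes with near-identical copies was not tested. With 2 against 3 samples an exact permutation test cannot reach a p below 0.05.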

How the results depend on the processing

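The number called was within 1.5 times of 418 with DESeq2 (378, of which 322 were shared), its size factors in edgeR (406), no filter (469), filterByExpr (405), a BaseMean above 20 (404) and the GC offset (500). It moved further at an adjusted p below 0.05 (171, 100 higher and 71 lower), with the 5 samples alone (773, 424 higher and 349 lower), with the replicate block (199, 119 higher and 80 lower) and with the replicate block and the GC offset (231, 121 higher and 110 lower). Deviations of samples with the same replicate number were not alike (mean correlation -0.07 over 7 pairs, from -0.27 to 0.09). They were taken from each group's own mean, which ties the pairs to each other. Whether the numbers pair the samples thus cannot be decided by these correlations. The main fit has no block, and the counts with it are given here. The authors' normalized values carry the numbers of SDHB KO replicates 1 and 3 exchanged against the raw counts, so that these numbers are in doubt for the block, the correlations and the samples left out. When single samples were left out, 0 to 833 genes were called, 0 to 474 higher and 0 to 359 lower: 0 without parental replicate 1 (665 at an unadjusted p below 0.05, edgeR), 46 without parental replicate 2, 77, 417 and 148 without SDHB KO replicates 1 to 3, and 382, 833 and 450 without SDHB KO SDHA low replicates 1 to 3. Of the 121 called genes that the naming rule covers, 45 lost the call with the block and 7 with the GC offset, among them SLC25A10, SLC7A5, H1-2, OPA1, STIP1 and CKS1B. DESeq2 left 5 above the threshold (RNU4ATAC, HSP90AA1, PSAP, SLC25A10 and NDUFA9) and gave no adjusted p for 21, among them CENPF, QTRT1, NRAS, RB1, MIF and BAX. Between 773042 and 960808 reads per sample leave genes under about 3 CPM unmeasured, and changes below 0.62 on the log2 scale were not called at any level.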
